A study of Homo sapiens with 6 samples.

Results

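The genes described here are 39 genes of the response to unfolded protein in the endoplasmic reticulum (ER) and to amino acid shortage, measured in HK-2 cells after knockdown of INO80. They were selected by gene symbol as members of these pathways, with earlier results of these data known. Each of the 39 symbols matched a row of the deposited table of 57905 genes, and each passed the filter on low counts, which 15343 genes passed. The genes comprise 5 chaperones, 4 cochaperones, 4 disulfide isomerases, 2 secreted factors, 6 genes of ER-associated degradation (ERAD), 5 sensors and transcription factors, 8 genes of the integrated stress response and 5 enzymes of amino acid and one-carbon metabolism.

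HK-2 is an immortalized human renal proximal tubular cell line, and the label gives its genotype as WT. Of the 6 libraries, 3 came from cells that received a pool of non-targeting siRNAs (control siRNA) and 3 from cells that received pooled siRNAs against INO80 (INO80 siRNA), all delivered with RNAiMAX and harvested after 48 h. INO80 is the ATPase of a chromatin remodeling complex, and the study sought the genes downstream of it. Each library was made from poly(A) RNA, and the replicates carry the numbers 1, 2 and 3 in both groups. The labels do not say whether the replicates were separate cultures, so the p-values measure the spread between these libraries, which may be technical.

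The total count was 16829273 to 20311588 under control siRNA and 20678008 to 23784599 under INO80 siRNA. Levels between libraries are given in CPM, the count relative to the library size after TMM scaling, and levels between genes in FPKM, which also divides by the exonic length. INO80 itself was at 46.3, 49.3 and 54 CPM in control siRNA replicates 1, 2 and 3 and at 13.8, 12.1 and 14.2 CPM in INO80 siRNA replicates 1, 2 and 3. The groups did not overlap, with a log2 fold change of -1.90 (adjusted p = 0.000161, edgeR, standard error 0.0956). Of the markers of the proximal tubule given here, GGT1 and PAX8 were above 30 FPKM in all libraries, LRP2, CUBN, AQP1 and ANPEP were at most 0.07 FPKM, and SLC22A6 and HNF4A had a count of 0 in every library, which allows up to 3 counts. The epithelial markers KRT8, KRT18, KRT19 and EPCAM were above 30 FPKM in all libraries, and CDH1 was at most 0.08 FPKM. None of 3 endothelial and 4 leukocyte markers reached 1 FPKM. In bulk RNA, fewer cells of a type and less RNA per cell cannot be told apart.

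Proteins that enter the ER are folded by chaperones such as HSPA5 (BiP) and by disulfide isomerases, and misfolded proteins are returned to the cytosol for degradation. When unfolded protein accumulates, the sensors IRE1 (encoded by ERN1), ATF6 and PERK (EIF2AK3) act through the factors XBP1, cleaved ATF6 and ATF4. Amino acid shortage reaches ATF4 through another kinase of the translation factor eIF2, so that ATF4 targets such as ASNS, CHAC1 and TRIB3 are shared between both kinds of stress. ER stress is well known in injury of the proximal tubule.

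The promoters of several of these genes hold the elements through which the factors act, and examples are shown because they are the known binding elements of the ATF6, XBP1 and ATF4 branches. The ER stress response element (ERSE) is CCAAT and CCACG with 9 bases between them, and is known to bind NF-Y together with ATF6 or XBP1. ERSE-II is ATTGG and CCACG with 1 base between them. The C/EBP-ATF response element (CARE) was searched as TGATGNAA and is known to bind ATF4. The UPR element was searched as TGACGTGG. Both strands were searched in RefSeq promoter windows from 250 bases before to 50 bases after the start of each gene (GRCh38.p14), and 36 of the 39 genes matched a window. DERL1, PDIA3 and SHMT2 did not match. In the sequences below, 5′ to 3′ in the direction of the gene, capitals mark the element with the bases between its ends, and elements on the opposite strand appear reversed and complemented.
HSPA5, ERSE, chr9:125241386-125241414, minus strand: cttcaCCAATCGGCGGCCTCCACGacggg
HSP90B1, ERSE, chr12:103930211-103930239, plus strand: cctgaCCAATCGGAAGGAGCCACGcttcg
CALR, ERSE on the opposite strand, chr19:12938379-12938407, plus strand: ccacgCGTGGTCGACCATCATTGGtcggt
XBP1, ERSE, chr22:28800598-28800626, minus strand: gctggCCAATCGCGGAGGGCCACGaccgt
HYOU1, ERSE-II on the opposite strand, chr11:119057269-119057289, minus strand: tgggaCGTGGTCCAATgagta
HERPUD1, ERSE-II, chr16:56932020-56932040, plus strand: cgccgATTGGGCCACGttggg
ASNS, CARE, chr7:97872464-97872481, minus strand: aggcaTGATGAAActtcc
CHAC1, CARE on the opposite strand, chr15:40953257-40953274, plus strand: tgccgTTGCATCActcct

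An ERSE lay in the window of 7 of the 36 genes (19.4%), against 25 of 27305 genes (0.0916%), and these were HSPA5, HSP90B1, CALR, CANX, PDIA6, CRELD2 and XBP1. An ERSE-II lay in the window of HYOU1, SDF2L1 and HERPUD1, 3 of 36 genes (8.33%) against 19 of all genes (0.0696%). The element of HSPA5 began 66 bases before the start, at position -66, and that of XBP1 at -52. HYOU1 held 2 copies of ERSE-II, and the more distant one, at -185, overlapped the only UPR element found in the 36 genes (2.78%, against 0.927% of all genes). A CARE was found in HERPUD1, CREB3L2, CHAC1 and ASNS, 4 of 36 genes (11.1%) against 1217 of all genes (4.46%). Such a match describes letters only, and the absence of a match says only that these letters are not in the window. Both the genes and the elements were chosen as parts of these stress pathways, so the higher shares are not a test of either.

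The 39 genes spanned a wide range of levels. Under control siRNA the mean was above 100 FPKM for 9 of them and below 10 FPKM for 10, with a median of 22.7 FPKM. CALR (calreticulin, a lectin chaperone that binds calcium) had the highest mean, at 680.1 ± 23.8 FPKM (SD, n = 3). It was followed by HSP90B1 (GRP94, the HSP90 of the ER) at 342.1 ± 22.9 and HSPA5 at 315 ± 28.8 FPKM (SD, n = 3 each). These means differed by about the spread of the replicates, but HSP90B1 was the higher within each control library. In control siRNA replicates 1, 2 and 3 it was at 322.25, 336.9 and 367.23 FPKM, against 288.97, 310.06 and 345.9 FPKM for HSPA5. The disulfide isomerases P4HB, PDIA3, PDIA4 and PDIA6 had means of 127.6 to 237.2 FPKM. PDIA3, PDIA4 and PDIA6 (128.4, 127.6 and 127.6 FPKM) did not differ beyond their SD of 7.46 to 8.82. PDIA3 has a processed copy, PDIA3P1, with a mean count of 635 against 11690, so its level is uncertain to that extent. ATF4 was the highest of the transcription factors at 115.8 ± 9.30 FPKM. The sensors were low: ATF6 was at 9.35 ± 0.379, EIF2AK3 at 8.19 ± 0.718 and ERN1 at 0.927 ± 0.0404 FPKM (SD, n = 3 each), the lowest of the 39. The fewest counts behind a value were those of CHAC1, with 58 to 218 per library.

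**Figure D1:**
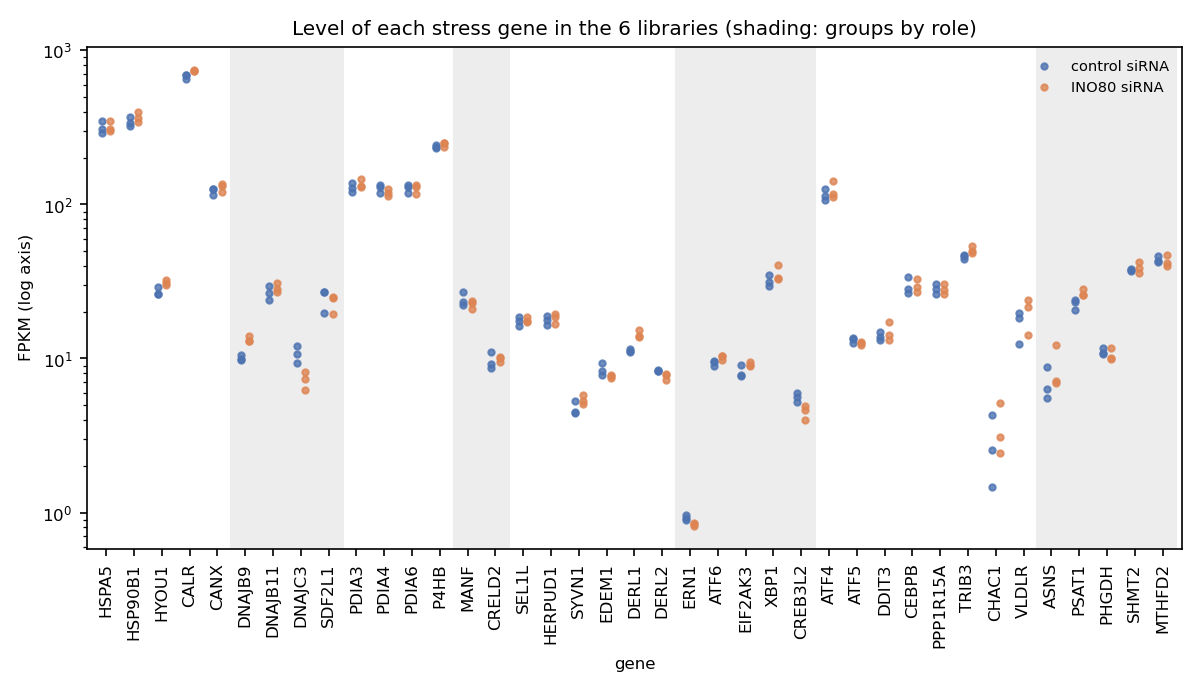
FPKM (log axis) of the 39 genes in the 3 control siRNA (blue) and 3 INO80 siRNA (orange) libraries, one point per library, with genes ordered by role and shading alternating between roles. The chaperones and disulfide isomerases lie above 100 FPKM except HYOU1, and ERN1 lies below 1 FPKM in all 6 libraries.

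The comparison of INO80 siRNA with control siRNA asks whether the set changed after INO80 was depleted. DNAJC3 fell, DNAJB9 and DERL1 rose, and the other 36 genes did not pass the test. Calls were made at an adjusted p under 0.05, with adjustment over every gene tested (edgeR's quasi-likelihood test without pairing). The 1 lower gene is 2.56% of the set, against 1.49% of all genes called lower, and the 2 higher genes are 5.13%, against 0.261% of all genes called higher. The changes were small. The log2 fold change was within 0.25 of zero for 33 of the 39 genes, against 11454 of the 15343 genes tested. Its median was 0.05 against 0.01 over all genes tested, and its median size was 0.11 against 0.13. It was above zero for 25 genes and below zero for 14. Of the 15343 genes tested, 7901 were above zero and 7442 below. At an unadjusted p under 0.05, 2 genes were lower (5.13%, against 9.2% of all genes) and 4 higher (10.3%, against 7.18%), shares close to the background.

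Libraries with the same replicate number deviated from their group means together, so the same test was run with the replicate number as a block. With the block, 17 of the 39 genes were called. DNAJC3, PDIA4, EDEM1 and CREB3L2 were lower, 10.3% of the set against 13.4% of all genes, which is near the background. Higher were HSP90B1, HYOU1, CALR, DNAJB9, DNAJB11, DERL1, EIF2AK3, XBP1, TRIB3, CHAC1, VLDLR, ASNS and PSAT1, 33.3% of the set against 11.4% of all genes. By CPM alone, the 2 groups did not overlap for 4 genes that were lower (10.3%, against 11.5% of all genes) and for 7 that were higher (17.9%, against 11.3%). In all 3 replicate pairs 21 genes were higher under INO80 siRNA (53.8%, against 26.8% of all genes) and 9 were lower (23.1%, against 25.9%).

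These counts changed when libraries were left out, as did the counts over all genes. Control siRNA replicates 1, 2 and 3 and INO80 siRNA replicates 1, 2 and 3 were left out 1 at a time, without the block (edgeR). In each of the 6 fits 0 of the 39 genes were called, near the background of 0.115% to 0.932% of all genes. With all libraries 1.75% of all genes were called. At an unadjusted p under 0.05, 2 to 3 of the 39 genes were lower and 2 to 6 higher. The share of all genes at that threshold was not computed for these fits. Without both libraries of replicate 1, DNAJC3 and DERL1 were called and DNAJB9 was not, with a log2 fold change of 0.38 against 0.39 with all libraries (adjusted p = 0.0506, edgeR). That fit called 3.37% of all genes. The block fit called 20 genes without replicate 1 (51.3%, against 25.4% of all genes), 10 without replicate 2 (25.6%, against 17%) and 7 without replicate 3 (17.9%, against 14.6%), the last a share near the background. The 7 genes DNAJC3, DNAJB9, DERL1, HYOU1, CREB3L2, VLDLR and ASNS were called in each of these block fits. They are the same 7 genes that the fit without replicate 3 called. These fits share libraries, and the share of all genes called in each of them was not computed.

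**Figure D2:**
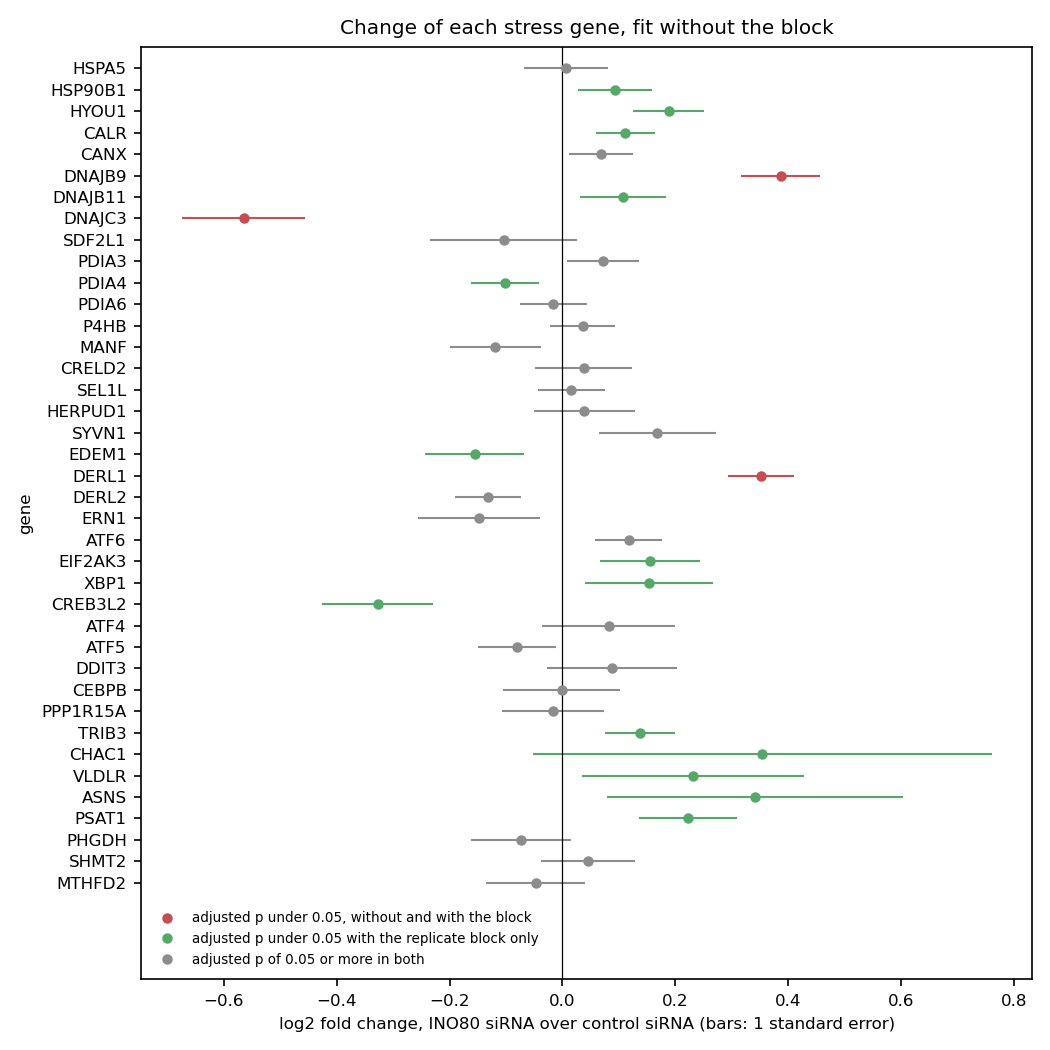
Log2 fold change of each of the 39 genes, INO80 siRNA over control siRNA, from the edgeR fit without the block, with bars of 1 standard error (3 libraries per group). DNAJC3 (-0.56) stands lowest and DNAJB9 (0.39) highest, the 3 red genes pass an adjusted p of 0.05 in both fits, the 14 green genes only with the block, and the 22 grey genes in neither.

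DNAJC3 (p58IPK, an HSPA5 cochaperone in the ER lumen that also inhibits PERK) showed the largest change of the 39 genes. It lies on chromosome 13 from 96329393 to 96447243 (ENSG00000102580, GRCh37). In control siRNA replicates 1, 2 and 3 it was at 53.2, 59.2 and 67.2 CPM, and in the INO80 siRNA replicates at 35.8, 40.7 and 44.95 CPM. Every INO80 siRNA library was below every control library. The means of 59.9 ± 7.001 and 40.5 ± 4.598 CPM (SD, n = 3 each) differed by a log2 fold change of -0.56 (adjusted p = 0.0471, edgeR, standard error 0.109; with the block, 6.62e-09). The drop was close to equal in the 3 pairs, at -0.57, -0.54 and -0.58 on the log2 scale. Without 1 library the log2 fold change was -0.65 to -0.48, with an adjusted p of at least 0.0506 (edgeR).

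DNAJB9 (ERdj4, a cochaperone that HSPA5 uses to restrain IRE1) moved in the opposite direction. It lies on chromosome 7 from 108210012 to 108215294 (ENSG00000128590, GRCh37). It was at 28.7, 29.8 and 27.7 CPM in the control siRNA replicates and at 37.9, 36.0 and 38.7 CPM in the INO80 siRNA replicates, with no overlap. The log2 fold change was 0.39 (adjusted p = 0.0409, edgeR, standard error 0.0706; with the block, 4.46e-05), a 1.31-fold increase. Without 1 library it was 0.36 to 0.42. DNAJB9 overlaps PNPLA8 and THAP5 on the opposite strand, which had mean counts of 1087 and 539 against 697. Since the strand setting of the counting is not given in the sources used here, reads may be shared with them. DNAJB11 (ERdj3), a further HSPA5 cochaperone, had a log2 fold change of 0.11 (adjusted p = 0.545, edgeR; 0.0409 with the block), which was 0.05 without control siRNA replicate 1, 0.07 without INO80 siRNA replicate 3 and 0.17 without control siRNA replicate 3. SDF2L1, which works with DNAJB11, had one of -0.10 and passed in neither fit. The 4 cochaperones thus included both the lowest and the highest fold change of the set.

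**Figure D3:**
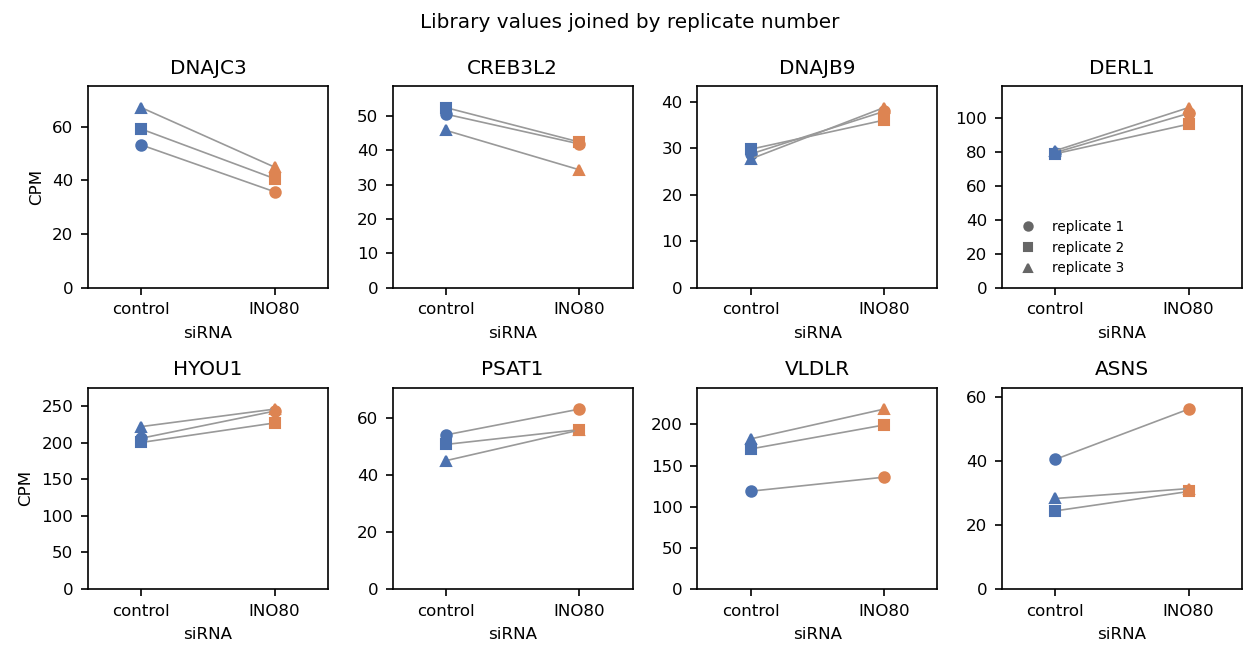
CPM (axes from 0) of 8 of the genes in each library, control siRNA in blue and INO80 siRNA in orange, with lines joining libraries of the same replicate number. DNAJC3 and CREB3L2 go down and the other 6 go up in all 3 pairs, while replicate 1 stands apart for VLDLR (below) and ASNS (above) in both groups.

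The abundant chaperones changed little. HSPA5, the usual marker of ER stress, was at 1159, 1205 and 1343 CPM in the control replicates and 1203, 1189 and 1331 CPM in the INO80 siRNA replicates, with overlapping groups. Its log2 fold change was 0.01 (95% interval -0.16 to 0.18, adjusted p = 0.983, edgeR). HYOU1 (GRP170, a nucleotide exchange factor for HSPA5) was at 206, 200.3 and 222 CPM in the control replicates and 243, 227 and 246 CPM in the INO80 siRNA replicates. These groups did not overlap, with a log2 fold change of 0.19 (adjusted p = 0.183, edgeR, standard error 0.0627; 0.000273 with the block). CALR was at 1818, 1868 and 1875 CPM in the control replicates and 2057, 1953 and 1995 CPM in the INO80 siRNA replicates. It also showed no overlap, with a log2 fold change of 0.11 (adjusted p = 0.345, edgeR; 0.00854 with the block). HSP90B1 was at 1551, 1570 and 1711 CPM in the control replicates and 1659, 1668 and 1826 CPM in the INO80 siRNA replicates. Its groups overlapped, but the difference within pairs was nearly constant, at 0.10, 0.09 and 0.09 on the log2 scale (adjusted p = 0.541 without and 0.0207 with the block, edgeR). In the fit without the block the log2 fold change was 0.09, and without INO80 siRNA replicate 3 it was 0.05. CANX (calnexin), the membrane partner of CALR, had a log2 fold change of 0.07 and passed in neither fit.

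Of the disulfide isomerases, which form and rearrange disulfide bonds, none passed without the block, and PDIA4 alone passed with it. PDIA4 was at 396, 426 and 437 CPM in the control replicates and 384, 382 and 408 CPM in the INO80 siRNA replicates. The groups overlapped, with a log2 fold change of -0.10 (adjusted p = 0.455, edgeR, standard error 0.0603; 0.0274 with the block). PDIA3, P4HB and PDIA6 had log2 fold changes of 0.07, 0.04 and -0.02. The secreted factors MANF, which protects cells under ER stress, and CRELD2 had log2 fold changes of -0.12 and 0.04 and passed in neither fit.

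ERAD takes misfolded proteins out of the ER through a membrane complex of the ligase SYVN1 (HRD1), its partner SEL1L, HERPUD1 and the derlins. DERL1 rose and was the only ERAD gene of the set called without the block. It lies on chromosome 8 from 124025404 to 124054663 (ENSG00000136986, GRCh37). It was at 79.5, 78.8 and 80.6 CPM in the control replicates and 103, 96.3 and 106 CPM in the INO80 siRNA replicates. The control libraries lay close together, and all INO80 siRNA libraries were above them. The log2 fold change was 0.35 (adjusted p = 0.0311, edgeR, standard error 0.0589; with the block, 9.79e-07), a 1.28-fold increase. With 1 library left out it was 0.32 to 0.39. DERL1 overlaps TBC1D31 on the opposite strand, which had a mean count of 373 against 1905.

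Its homologue DERL2 was lower in all 3 pairs without passing either test. DERL2 had a log2 fold change of -0.13 (95% interval -0.26 to 0.00, adjusted p = 0.311, edgeR; 0.0653 with the block), and its groups did not overlap in CPM. EDEM1, a lectin that passes misfolded glycoproteins to ERAD, was at 64.7, 55.4 and 52.7 CPM in the control replicates and 54.7, 50.8 and 49.6 CPM in the INO80 siRNA replicates. The groups overlapped, with a log2 fold change of -0.16 (adjusted p = 0.436, edgeR; 0.0322 with the block), or -0.06 without control siRNA replicate 1. SYVN1, SEL1L and HERPUD1 had log2 fold changes of 0.17, 0.02 and 0.04 and passed in neither fit. SYVN1 overlaps FAU on the same strand and DERL2 overlaps MIS12 on the opposite strand, so their counts are uncertain.

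None of the sensors and their factors passed without the block. ERN1 was at 10.3, 10.4 and 9.62 CPM in the control replicates and 9.35, 8.78 and 9.21 CPM in the INO80 siRNA replicates. The groups did not overlap, but the log2 fold change of -0.15 (standard error 0.108) passed neither test. ATF6 was at 77.3, 69.9 and 75.1 CPM in the control replicates and 79.8, 81.1 and 80.2 CPM in the INO80 siRNA replicates, again without overlap. Its log2 fold change was 0.12 (adjusted p = 0.386, edgeR; 0.0629 with the block). EIF2AK3 was at 50.3, 42.5 and 41.5 CPM in the control replicates and 53.0, 48.4 and 48.0 CPM in the INO80 siRNA replicates. Its groups overlapped, with a log2 fold change of 0.15 (adjusted p = 0.441, edgeR; 0.0314 with the block). Without control siRNA replicate 1 it was 0.24, and without control siRNA replicate 3 it was 0.10.

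XBP1 was at 108, 94.2 and 88.4 CPM in the control replicates and 126, 99.8 and 97.8 CPM in the INO80 siRNA replicates. In both groups replicate 1 was the highest and the groups overlapped, with a log2 fold change of 0.15 (adjusted p = 0.561, edgeR; 0.0107 with the block). That value was 0.03 without INO80 siRNA replicate 1, 0.09 without control siRNA replicate 3 and 0.24 without control siRNA replicate 1. A count per gene does not separate the XBP1 message spliced by IRE1 from the unspliced one. CREB3L2 (BBF2H7), an ER-bound factor that is cleaved like ATF6 and promotes secretion, was at 50.6, 52.5 and 45.8 CPM in the control replicates and 41.9, 42.4 and 34.3 CPM in the INO80 siRNA replicates. The groups did not overlap, with a log2 fold change of -0.33 (adjusted p = 0.144, edgeR, standard error 0.0976; 5.95e-05 with the block). CREB3L2 was thus the second lowest of the 39 genes, after DNAJC3.

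None of the 8 genes of the integrated stress response passed without the block, and TRIB3, CHAC1 and VLDLR passed with it, all higher. ATF4 was at 325, 285 and 269 CPM in the control replicates and 368, 288 and 274 CPM in the INO80 siRNA replicates. The groups overlapped, and the log2 fold change of 0.08 (95% interval -0.19 to 0.35) did not pass in either fit (adjusted p = 0.788 and 0.145, edgeR). ATF4 is known to be controlled mostly at translation, which RNA-seq does not measure. DDIT3 (CHOP), its proapoptotic partner, was at 15.9, 17.5 and 16.1 CPM in the control replicates and 15.9, 20.1 and 16.6 CPM in the INO80 siRNA replicates. The groups overlapped, with a log2 fold change of 0.09 (95% interval -0.18 to 0.35, adjusted p = 0.768, edgeR). DDIT3 overlaps MARS on the opposite strand, which had a mean count of 3677 against 356.

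TRIB3, a pseudokinase that feeds back on ATF4, was at 140, 138 and 130 CPM in the control replicates and 152, 155 and 141 CPM in the INO80 siRNA replicates. These groups did not overlap, with a log2 fold change of 0.14 (adjusted p = 0.321, edgeR; 0.00874 with the block). VLDLR, a lipoprotein receptor and ATF4 target, was at 119, 170.2 and 182 CPM in the control replicates and 136, 199 and 219 CPM in the INO80 siRNA replicates. Replicate 1 was the lowest in both groups, which overlapped. The log2 fold change was 0.23 (adjusted p = 0.622, edgeR, standard error 0.197), and with the block the standard error was 0.0370 and the adjusted p 4.25e-05. Without the block and 1 library, the log2 fold change of VLDLR ran from 0.07 (without control siRNA replicate 1) to 0.41 (without INO80 siRNA replicate 1), and it was 0.09 without INO80 siRNA replicate 3 and 0.35 without control siRNA replicate 3. CHAC1, which degrades glutathione, had a log2 fold change of 0.35 (adjusted p = 0.727, edgeR, standard error 0.406; 0.0433 with the block). It ran from -0.03 without INO80 siRNA replicate 1 and 0.04 without control siRNA replicate 3 to 0.58 without INO80 siRNA replicate 3 and 0.83 without control siRNA replicate 1. The block call of CHAC1 was lost without replicate 2, without replicate 3 and in DESeq2 with the block. The same fits also lost the block calls of HSP90B1, PDIA4, EIF2AK3 and TRIB3. DNAJB11 and EDEM1 lost theirs in these fits and also without replicate 1. XBP1 lost its block call without replicate 3 and in DESeq2 with the block, and CALR and PSAT1 lost theirs without replicate 3. ATF5, CEBPB and PPP1R15A (GADD34, which reverses eIF2 phosphorylation) had log2 fold changes of -0.08, 0.00 and -0.02 and passed in neither fit. ATF5 overlaps NUP62 and IL4I1 on the opposite strand, which had mean counts of 3035 and 590.5 against 789.

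Of the 5 metabolic enzymes, none passed without the block, and ASNS and PSAT1 passed with it. ASNS (asparagine synthetase) was at 40.4, 24.4 and 28.2 CPM in the control replicates and 56.1, 30.4 and 31.3 CPM in the INO80 siRNA replicates. Both replicate 1 libraries stood above the others of their group, and the groups overlapped. The log2 fold change was 0.34 (adjusted p = 0.579, edgeR, standard error 0.262; 0.000554 with the block), and it was 0.00 without INO80 siRNA replicate 1, 0.19 without control siRNA replicate 2 and 0.57 without control siRNA replicate 1. PSAT1, the second enzyme of serine synthesis, was at 54.2, 50.8 and 45.1 CPM in the control replicates and 63.2, 56.0 and 55.9 CPM in the INO80 siRNA replicates. The groups did not overlap, with a log2 fold change of 0.22 (adjusted p = 0.249, edgeR; 0.00212 with the block). PHGDH, the first enzyme of that pathway, had a log2 fold change of -0.07. SHMT2 and MTHFD2, of mitochondrial one-carbon metabolism, had log2 fold changes of 0.05 and -0.05. None of these 3 passed in either fit.

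The 10 genes with an ERSE or ERSE-II had log2 fold changes of -0.10 to 0.19, with a median of 0.05. None was called without the block. With it, HSP90B1, CALR, XBP1 and HYOU1 were called higher, and the other 6 genes, HSPA5 among them, were not called. The 4 genes with a CARE had log2 fold changes of -0.33 (CREB3L2) to 0.35 (CHAC1), and with the block ASNS and CHAC1 were called higher, CREB3L2 lower and HERPUD1 not. With the block, 11.4% of all genes were called higher and 13.4% lower, and of the 39 genes 33.3% and 10.3%. A link between the elements and the changes was not tested. DNAJC3 and DNAJB9 held none of the 4 elements as searched.

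Many of the stress genes also differed between the replicate numbers. An edgeR test of the replicate terms in the block fit called 20 of the 39 genes (51.3%, against 26.7% of all genes). Among these 20 genes, 12 were higher in replicate 1 than in the mean of replicates 2 and 3 in both groups, 7 were lower in both groups, and CEBPB differed in side between the groups. The 12 were HERPUD1, EDEM1, EIF2AK3, XBP1, CREB3L2, ATF4, PPP1R15A, CHAC1, ASNS, PSAT1, SHMT2 and MTHFD2, which include 4 of the 5 metabolic enzymes. The 7 were HSPA5, HSP90B1, DNAJB11, DNAJC3, SDF2L1, PDIA3 and VLDLR, of which all but VLDLR are chaperones, cochaperones or disulfide isomerases. These sides compare replicate 1 only, and other replicates can stand further apart. HSPA5 and HSP90B1 were highest in replicate 3 in both groups. CREB3L2 was highest in replicate 2 and lowest in replicate 3 in both groups. The labels do not say what the replicate number stands for.

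ASNS in replicate 1 was 1.54 times the mean of the other replicates under control siRNA and 1.82 times under INO80 siRNA, against a treatment difference of 1.27-fold. ATF4 was 1.17 and 1.31 times that mean, and XBP1 1.19 and 1.27 times. CHAC1, whose library values are given after they were seen, was at 9.09, 5.19 and 3.00 CPM in the control replicates and 10.8, 6.25 and 4.91 CPM in the INO80 siRNA replicates. Its replicate 1 was 2.22 and 1.94 times the mean of the others. VLDLR was at 0.674 and 0.650 times that mean. SDF2L1 was at 0.759 and 0.813 times, HSPA5 at 0.910 and 0.955 times and DNAJC3 at 0.843 and 0.835 times that mean. DNAJB9 and DERL1 showed no such difference between replicates (adjusted p = 0.985 and 0.405, edgeR, replicate terms).

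**Figure D4:**
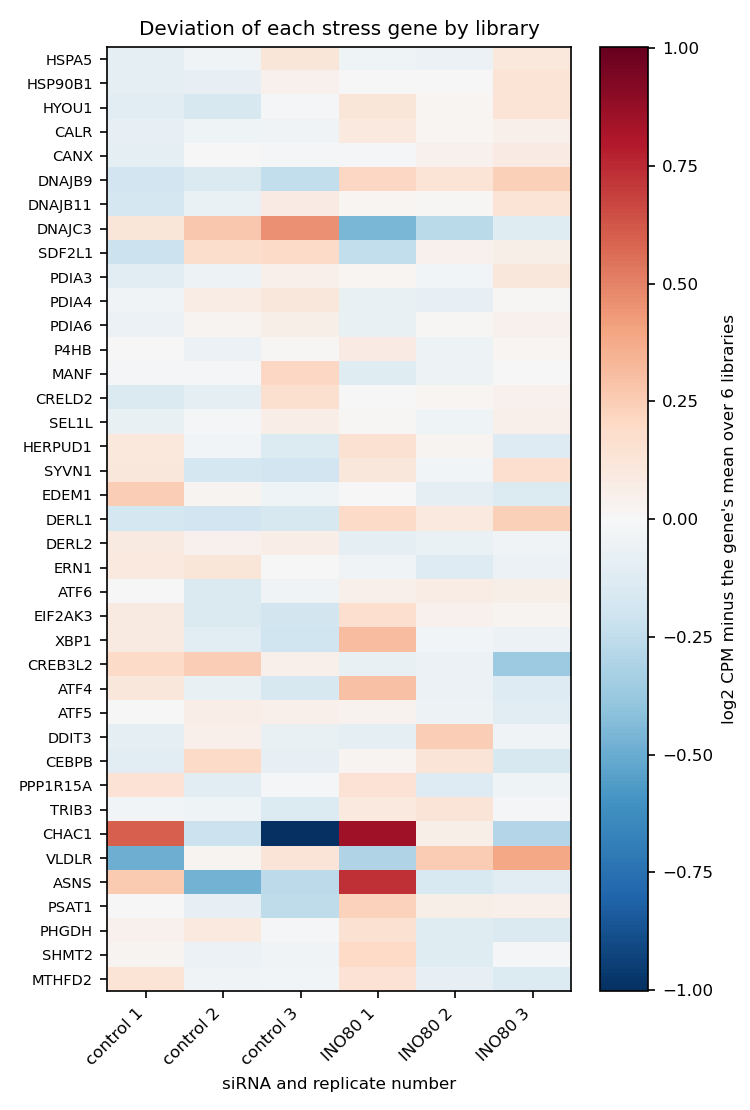
Log2 CPM of each of the 39 genes minus its mean over the 6 libraries, by siRNA and replicate number (red higher, blue lower). CHAC1 and ASNS are red and VLDLR is blue in both replicate 1 libraries, while DNAJC3 separates the libraries by siRNA.

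The fibroblast marker DCN moved with the replicate number, at 4.95 and 5.73 FPKM in replicate 1 and 0.80 to 1.17 FPKM in the other 4 libraries. Of the 5 fibroblast markers, 2 (COL1A1 and DCN) reached 1 FPKM, and their summed level was 5.02 to 9.69 FPKM under control siRNA and 5.90 to 11.8 FPKM under INO80 siRNA. COL1A2 and PDGFRA were at most 0.01 FPKM and PDGFRB at most 0.14 FPKM. Mitochondrial genes held 1.62% to 2.36% of the counts under control siRNA and 1.77% to 2.63% under INO80 siRNA. The part of these in the stress gene values was not tested.

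A wider list of 102 genes of the same pathways, fixed by role and without overlap with the 39, held 101 genes of the table, of which 94 passed the count filter. In it 1 gene was called, LARS, which was lower (1.06%, against 1.49% of all genes), and 0 were higher, against 0.261% of all genes (edgeR). At an unadjusted p under 0.05, 6 were lower (6.38%, against 9.2% of all genes) and 4 higher (4.26%, against 7.18%). With the block 16 were lower (17%, against 13.4% of all genes) and 18 higher (19.1%, against 11.4%). The median log2 fold change was 0.04, close to that of the 39 genes. LARS (leucyl-tRNA synthetase) was at 181, 150.1 and 155 CPM in the control replicates and 126, 114 and 119 CPM in the INO80 siRNA replicates. Its log2 fold change was -0.44 (adjusted p = 0.0425, edgeR, standard error 0.0822; 5.99e-09 with the block), and the other 12 tRNA synthetases were not called without the block. With the block, LARS and NARS were lower and EPRS and SARS higher, the last 3 named after their values were seen.

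The largest difference on this wider list was that of SLC7A11, the cystine transporter and an ATF4 target. It was at 81.1, 57.2 and 49.1 CPM in the control replicates and 43.2, 35.9 and 23.98 CPM in the INO80 siRNA replicates. The groups did not overlap, with a log2 fold change of -0.86 (adjusted p = 0.114, edgeR, standard error 0.233; 5.86e-11 with the block). Lower with the block were also RNF5 (-0.36) and FAF2 (-0.34), which act in ERAD, MBTPS2 (-0.32), the protease that completes the cleavage of ATF6, and EIF2B5 (-0.35), a subunit of the eIF2 exchange factor. Higher with the block were TOR1A (0.23), an ER-lumenal ATPase, and DDIT4 (0.34), a stress-induced inhibitor of mTORC1. Without the block, the adjusted p of these 6 genes was 0.0709 to 0.187 (edgeR).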

How the data were processed

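RNA-seq was analysed for 3 control siRNA and 3 INO80 siRNA libraries of HK-2 cells. Libraries were directional, from poly(A) RNA, sequenced in pairs. The authors deposited 1 table that holds, per gene and library, unnormalized counts and FPKM values, with the exonic length of the gene. All 347430 FPKM values followed from count, length and library total within 0.006. The submitters' processing notes name HISAT2 2.0.1, HTSeq and hg19, whereas the paper names ELAND and hg38. The coordinates are GRCh37. The strand setting of the counting is not given in the sources used here, so overlapping and antisense genes are uncertain.

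Counts were tested in R 4.3.3 with edgeR 4.0.16 (filterByExpr, TMM, quasi-likelihood test), with Benjamini-Hochberg adjustment over the 15343 genes tested. The groups came from the labels. Libraries of equal number correlated in their deviations from the group means (r = 0.581, 0.365 and 0.360, highest other 0.152, across genes, which are not independent replicates), so each number was taken as a pair and the block fit is given where it changes a call. The alternatives were the block, DESeq2 1.42.0, median ratio size factors, no count filter, a mean FPKM of at least 1, limma 3.58.1 on log2(FPKM + 0.1), and each library left out. A fit without both replicate 1 libraries was added after seeing the data.

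On simulated data, 198 of 200 genes changed by a log2 fold of 1 were recovered without the block (7 false calls over 15152 genes) and 200 with it (7 over 15162). The test of replicate terms recovered 196 (12 false over 15153). The simulation used the same dispersion for every gene and changed only genes above a limit on counts. Its changes were larger than those of all 39 genes, which ran from -0.565 to 0.386. It therefore does not show how often changes of their size are missed. A gene without counts in a library may have up to 3 counts there, a limit that covers counting error only.

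The genes and lists were chosen with earlier results of these data known. Library values are given for genes called without the block, for the 12 further genes with the smallest p in the block fit, and for ERN1, ATF6, EIF2AK3, XBP1, ATF4 and DDIT3. Those of HSPA5 and CHAC1 were added after their values were seen. Of the wider list, the 8 genes with the smallest p are named. Promoter elements were searched in Python 3.11.15, which also drew the figures with matplotlib 3.10.9. The reads and the gene ontology columns were not used. The results for some marker genes are not reported here.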

Additional observations from a re-analysis of the deposited data

How the results depend on the processing

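Of the 39 genes, 3 were called without the replicate block, against 1.75% of all genes. DESeq2 called 3 (against 4.15% of all genes), and median ratio size factors gave 3 (against 1.82%). Without the count filter 4 were called, against 2.43% (CREB3L2 added, adjusted p = 0.0490, edgeR). With a mean FPKM of at least 1, where ERN1 was not tested, 3 were called, against 2.52%. By limma on log2(FPKM + 0.1) 0 were called, against 0.495%. There 2 were lower and 5 higher at an unadjusted p under 0.05, for which the share of all genes was not computed. Leaving out 1 library left 0 called each time, against 0.115% to 0.932% of all genes. With both replicate 1 libraries left out, 2 were called, against 3.37%. With the replicate block, which treats equal numbers as pairs, 17 of the 39 genes, 34 of the wider list and 3798 of all genes were called, and the direction of all 39 genes was kept. The block fit called 9 of the 39 by DESeq2, against 12.1% of all genes. With a pair left out it called 7 to 20, against 14.6% to 25.4% of all genes. The test between replicate numbers called 20 by edgeR, against 26.7% of all genes. By DESeq2 it called 10, for which the share of all genes was not computed. Over all genes, 268 were called, 637 by DESeq2, 708 without the count filter, 76 by limma and 18 to 146 with 1 library left out. On the wider list, 1 was called, 4 by DESeq2, 7 without the filter and 0 with any library left out. The cause of these differences was not tested.

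Signs changed in 13 genes. None was called in the fits where its sign changed, and of the 13, ASNS and CHAC1 were called with the block. With 1 library left out, the log2 fold change ranged from -0.0463 to 0.0663 for HSPA5, from -0.0489 to 0.0169 for PDIA6, from -0.0206 to 0.133 for CRELD2, from -0.0165 to 0.0506 for SEL1L, from -0.0311 to 0.109 for HERPUD1, from -0.0587 to 0.164 for ATF4, from -0.0243 to 0.152 for DDIT3, from -0.0689 to 0.101 for CEBPB, from -0.0958 to 0.0522 for PPP1R15A, from -0.0301 to 0.827 for CHAC1, from -6e-04 to 0.574 for ASNS, from -0.0477 to 0.115 for SHMT2, and from -0.139 to 0.0107 for MTHFD2. Without the count filter CEBPB was at 0.009.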
